A study of Mus musculus with 10 samples.

Results

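Sesn1, Sesn2 and Phlda3, 3 of the 17053 genes in the deposited table, encode proteins that restrain growth signalling, and the rows carrying these symbols were taken, each symbol occurring once. They were selected on earlier results of the same table, mainly the counts of unconverted 4sU libraries set against untreated and uridine libraries, so their values in that contrast are given as a description without a test. RNA was sequenced from wild-type NIH-3T3 fibroblasts, a long-established line from mouse embryos, in 10 libraries with 2 replicates, A and B, in each of 5 groups. In the TUC group, cells were given 800 µM 4-thiouridine (4sU) for 2 h and the extracted RNA was incubated with OsO4 and an ammonium salt. In the SLAM group, the same 4sU treatment was followed by iodoacetamide. The unconverted 4sU group received 4sU and no chemistry, the uridine group received 800 µM uridine for 2 h, and the untreated group received neither. 4sU is a uridine analogue that enters RNA made during the labelling, and both chemistries make it read as a T-to-C mismatch, so that new RNA can be told from RNA that was already there.

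Sestrins act as brakes on mTORC1, the kinase complex that couples nutrients to protein synthesis and cell growth. In human cells SESN1 and SESN2 bind the GATOR2 complex and so keep mTORC1 off when leucine is scarce, and sestrins also act through the energy-sensing kinase AMPK. PHLDA3 is a small protein built around a pleckstrin homology domain; in human cells it competes with the growth kinase AKT for membrane phosphoinositides. All 3 genes are known targets of p53, a transcription factor that responds to damaged DNA and other stress, and Sesn2 is also induced by the stress factors ATF4 and NRF2.

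The windows before the start sites are shown as a description. Sesn2 and Phlda3 moved together across the libraries whereas Sesn1 did not, but the members were chosen mainly on contrasts of these libraries. The RefSeq promoter table (GRCm38.p6) holds 1 start site for Sesn2, 1 for Phlda3 and 2 for Sesn1. Each run below is the 250 bases before a start site, 5′ to 3′ on the gene's strand. Capitals mark CCAAT (the CCAAT box), GGGCGG (the GC box) and the p53 half-site consensus, searched on both strands, where matches of GGGCGG can overlap each other.
Sesn2, chr4:132510457-132510706, minus strand: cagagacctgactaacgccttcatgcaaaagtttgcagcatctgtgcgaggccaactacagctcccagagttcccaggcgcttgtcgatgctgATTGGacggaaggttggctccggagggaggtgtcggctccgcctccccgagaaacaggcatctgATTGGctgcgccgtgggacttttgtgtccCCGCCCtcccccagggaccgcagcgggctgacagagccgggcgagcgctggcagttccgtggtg
Phlda3, chr1:135765835-135766084, plus strand: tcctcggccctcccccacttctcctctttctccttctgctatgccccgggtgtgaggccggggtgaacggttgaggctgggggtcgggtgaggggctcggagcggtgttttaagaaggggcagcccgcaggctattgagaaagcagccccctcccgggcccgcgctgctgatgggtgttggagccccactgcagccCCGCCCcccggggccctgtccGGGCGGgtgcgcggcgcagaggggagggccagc
Sesn1, second start site, chr10:41887189-41887438, plus strand: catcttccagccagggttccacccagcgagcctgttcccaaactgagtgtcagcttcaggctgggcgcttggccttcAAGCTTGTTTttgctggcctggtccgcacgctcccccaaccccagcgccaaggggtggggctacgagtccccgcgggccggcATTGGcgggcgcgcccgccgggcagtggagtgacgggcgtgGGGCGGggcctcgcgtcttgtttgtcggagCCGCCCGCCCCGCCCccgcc
The Sesn2 window held 2 CCAAT and 1 GGGCGG match, and the Phlda3 window 0 CCAAT and 2 GGGCGG matches. The Sesn1 window shown held 1 CCAAT and 4 GGGCGG matches, and the window before the other Sesn1 start site (chr10:41810324-41810573) the same numbers. Of all 32851 windows of this length, 33.8% held CCAAT and 32.7% held GGGCGG. The p53 half-site consensus matched once, before the second Sesn1 start site, and it is present in 7.13% of all windows. Only full matches within these 250 bases were searched, so the search says nothing of p53 sites elsewhere or with mismatches. The TATA box TATAAA, found in 12.4% of all windows, had 0 matches in the 4 windows. G and C made up 63.2% of the Sesn2 window, 71.2% of the Phlda3 window and 70.0 and 71.2% of the Sesn1 windows, against a median of 52.4% over all windows.

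Gene totals ran from 27094222 to 33785682 counts per library. TMM factors were 0.947 in SLAM A and 0.96 in TUC A and between 0.995 and 1.025 elsewhere. All 10 fibroblast markers listed for the check of cell identity were measured, with a summed level of 17900 to 26000 CPM (counts scaled by library size and edgeR's TMM factors). The other lists were summed over those of their markers that the deposited table holds. Epithelial genes (3 of 6 listed) reached 0.0363 to 0.153 CPM and endothelial genes (4 of 5) 0.292 to 1.13 CPM. Adipocyte and muscle genes (3 of 6) reached 4.76 to 7.4 CPM and macrophage and leukocyte genes (5 of 6) 7.56 to 16.6 CPM. Replicates of a letter deviated together in all 10 pairs of groups. Values fitted with the letter as a block are therefore printed wherever that changed a call of Sesn1, Sesn2 or Phlda3 in a tested comparison.

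Per kilobase of the deposited gene length, Phlda3 was the most abundant of the 3 and Sesn1 the least. Over all 10 libraries the mean level was 69.9 CPM per kb for Phlda3, 11.1 CPM per kb for Sesn2 and 2.8 CPM per kb for Sesn1, which placed them at percentiles 92, 57.4 and 27.5 of the 12218 genes that passed the filter on low counts. All 3 genes passed that filter. Read counts behind these levels ran from 1562.5 to 4352.25 for Phlda3, from 739.5 to 1707.5 for Sesn2 and from 229 to 446.5 for Sesn1. A lower level can mean fewer cells that hold the RNA or less RNA per cell, and bulk libraries cannot tell these apart.

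Sesn2 was present at about the same level in both groups without 4sU and at a higher one in all 6 libraries of cells given 4sU. Its level was 43.2 and 44.0 CPM in TUC A and B, 48.8 and 50.2 CPM in SLAM A and B, 52.7 and 49.2 CPM in unconverted 4sU A and B, 26.9 and 23.7 CPM in uridine A and B, and 26.1 and 22.4 CPM in untreated A and B. Every library with 4sU lay above every library without it. The members were chosen mainly on such a difference, and the share of all genes divided in this way was not counted. Unconverted 4sU over untreated libraries gave a log2 fold change of 1.07 ± 0.107 (SE), a 2.1-fold difference, and over uridine libraries 1.01 ± 0.107.

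Phlda3 showed the same division between libraries with and without 4sU. Its level was 126.8 and 133.7 CPM in TUC A and B, 147.2 and 127.8 CPM in SLAM A and B, 119.1 and 117.3 CPM in unconverted 4sU A and B, 56.8 and 60.2 CPM in uridine A and B, and 54.8 and 59.7 CPM in untreated A and B. The lowest library with 4sU, unconverted B, lay well above the highest without it, uridine B. Phlda3 too was chosen mainly on such a difference, and the share of all genes divided in this way was not counted. The log2 fold change was 1.04 ± 0.098 (SE) for unconverted 4sU over untreated and 1.01 ± 0.098 over uridine. SLAM A stood apart from the other 4sU libraries at the top of the range.

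Sesn1 did not share this pattern. It stood at 8.78 and 10.6 CPM in TUC A and B, 8.41 and 10.8 CPM in SLAM A and B, 10.0 and 11.2 CPM in unconverted 4sU A and B, 10.1 and 11.9 CPM in uridine A and B, and 11.9 and 12.9 CPM in untreated A and B. All 6 libraries with 4sU lay below both untreated ones, but they overlapped the uridine libraries. The share of all genes with this order was not counted either. The log2 fold change was -0.23 ± 0.161 (SE) for unconverted 4sU over untreated and -0.06 ± 0.162 over uridine, the last changing sign when uridine B (0.06) or unconverted 4sU A (0.01) was left out. Letter B was above letter A in all 5 groups for Sesn1, as it was for 30.3% of all genes, by 0.11 to 0.36 on the log2 scale. In unconverted 4sU against untreated libraries, groups without overlap were found for all 3 members and for 37.4% of the 12218 genes, and this contrast helped to choose the members.

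**Figure D1:**
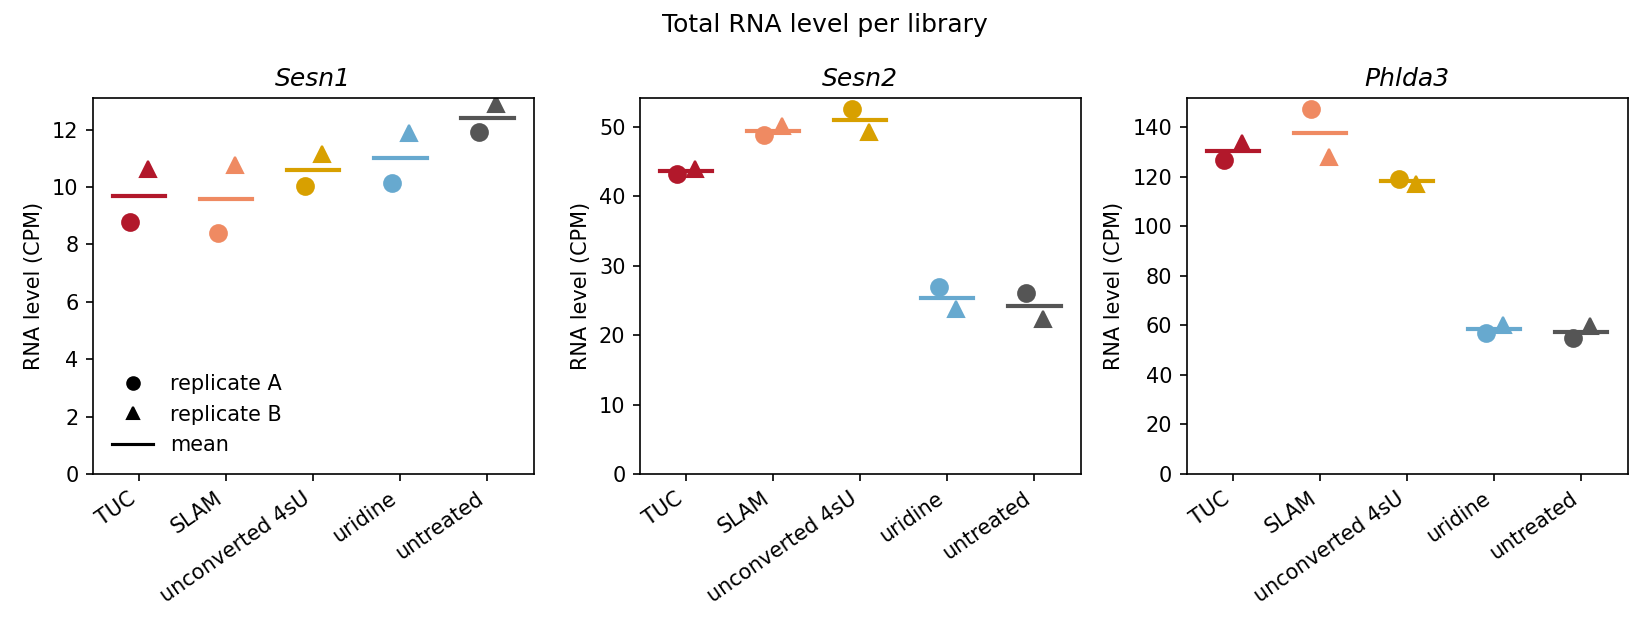
Total RNA level in CPM (vertical axis, from 0) of Sesn1, Sesn2 and Phlda3 in each library, by group. Circles are replicate A, triangles replicate B and lines the mean of the 2 replicates. Sesn2 and Phlda3 lie higher in the 3 groups with 4sU, and Sesn1 is highest in untreated libraries.

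The converted libraries repeat the 4sU treatment, although the labels do not say whether their RNA came from separate cultures. Against untreated libraries, with which the unconverted comparison shares its controls, Sesn2 had a log2 fold change of 0.85 ± 0.107 (SE) in TUC and 1.03 ± 0.107 in SLAM libraries. Leaving out 1 library gave 0.74 (without untreated B) to 0.96 (without untreated A) in TUC and 0.92 to 1.15, for the same libraries, in SLAM. Phlda3 had 1.19 ± 0.098 in TUC and 1.26 ± 0.098 in SLAM libraries. Sesn1 had -0.35 ± 0.162 in TUC and -0.37 ± 0.162 in SLAM libraries (SE 0.091 and 0.09 with the letter as a block). These values moved with single libraries, from -0.22 without TUC A to -0.50 without TUC B, and from -0.19 without SLAM A to -0.56 without SLAM B. Against uridine, Sesn1 had -0.18 ± 0.163 in TUC and -0.20 ± 0.163 in SLAM libraries. Leaving out 1 library gave -0.06 (without TUC A) to -0.33 (without TUC B) and -0.02 (without SLAM A) to -0.39 (without SLAM B).

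Uridine libraries were set against untreated ones to see what the added nucleoside does without the thiol. None of the 3 genes passed, and 0 of 12218 genes did (0% called; edgeR quasi-likelihood, Benjamini-Hochberg adjusted p under 0.05), against 46 at an unadjusted p under 0.05 and 0 by DESeq2. The log2 fold change was 0.06 for Sesn2 (95% interval -0.18 to 0.31), 0.03 for Phlda3 (-0.19 to 0.25) and -0.17 for Sesn1 (-0.54 to 0.20), each with an adjusted p of 1. Sesn1 was lower with uridine in both letters, by 0.23 in A and 0.11 in B, and its groups did not overlap, as for 15.1% of all genes.

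Whether the chemistries move the counts of these genes was asked by setting TUC and SLAM libraries against unconverted 4sU libraries, which also served in the contrast that chose the members. After SLAM chemistry Phlda3 averaged 137.5 ± 13.7 CPM, against 118.2 ± 1.3 CPM in unconverted 4sU libraries (SD, n = 2 each). Its log2 fold change of 0.22 ± 0.096 (SE) did not pass without the block (adjusted p = 0.273, edgeR quasi-likelihood) and passed once the letter was a block (0.22 ± 0.068, adjusted p = 0.0169). With the block 41.6% of all genes were called, against 0.344% without it, so 1 member of 3 is near the background. The groups did not overlap for Phlda3, nor for 43.4% of all genes. The blocked call was lost without unconverted 4sU A (adjusted p = 0.0667), unconverted 4sU B (adjusted p = 0.131) or SLAM A (log2 fold change 0.09, adjusted p = 0.271, edgeR), and the value was 0.35 without SLAM B (adjusted p = 1.13e-05). The difference was thus smallest without SLAM A.

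Sesn2 and Sesn1 did not pass between SLAM and unconverted 4sU libraries in either fit. Sesn2 averaged 49.5 ± 0.973 CPM in SLAM and 51.0 ± 2.43 CPM in unconverted libraries (SD, n = 2), a log2 fold change of -0.04 (95% interval -0.29 to 0.20). Sesn1 averaged 9.6 ± 1.68 CPM in SLAM and 10.6 ± 0.787 CPM in unconverted libraries, a log2 fold change of -0.14 (-0.52 to 0.23). Their adjusted p was 0.862 and 0.673 without the block and 0.684 and 0.241 with it, in edgeR's quasi-likelihood test.

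After TUC chemistry Sesn2 averaged 43.6 ± 0.525 CPM, against 51.0 ± 2.43 CPM in unconverted 4sU libraries (SD, n = 2), and the groups did not overlap, as for 37.2% of all genes. Its log2 fold change of -0.23 ± 0.106 (SE) did not pass without the block (adjusted p = 0.704, edgeR quasi-likelihood) and passed with it (-0.22 ± 0.071, adjusted p = 0.0317), where 25.8% of all genes were called, against 0% without the block (846 genes at an unadjusted p under 0.05, 16 called by DESeq2). Leaving out any 1 of these 4 libraries ended the blocked call, with an adjusted p of 0.0857 to 0.261. Phlda3 averaged 130.3 ± 4.87 CPM in TUC and 118.2 ± 1.3 CPM in unconverted libraries, a log2 fold change of 0.14 (95% interval -0.08 to 0.36), also without overlap. Sesn1 averaged 9.71 ± 1.31 CPM in TUC and 10.6 ± 0.787 CPM in unconverted libraries (-0.12, -0.50 to 0.25). These last genes did not pass in either fit.

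Set against each other, the chemistries gave no call for any of the 3 genes in either fit, with 0% of all genes called without the block (1205 at an unadjusted p under 0.05, 181 called by DESeq2) and 20.1% with it. Sesn2 was lower in TUC than in SLAM libraries in both letters, by 0.17 in A and 0.19 in B on the log2 scale, and its groups did not overlap, as for 31.0% of all genes. Its fitted difference was -0.18 ± 0.105 (SE, adjusted p = 0.672 by edgeR, and adjusted p = 0.0837 with the block). Phlda3 had -0.08 (95% interval -0.30 to 0.14), with letters of opposite sign, and Sesn1 had 0.02 (-0.36 to 0.40). With the block, Sesn2 passed when SLAM A was left out (-0.27, adjusted p = 0.00667, edgeR) and Phlda3 when SLAM B was (-0.21, adjusted p = 0.0097).

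**Figure D2:**
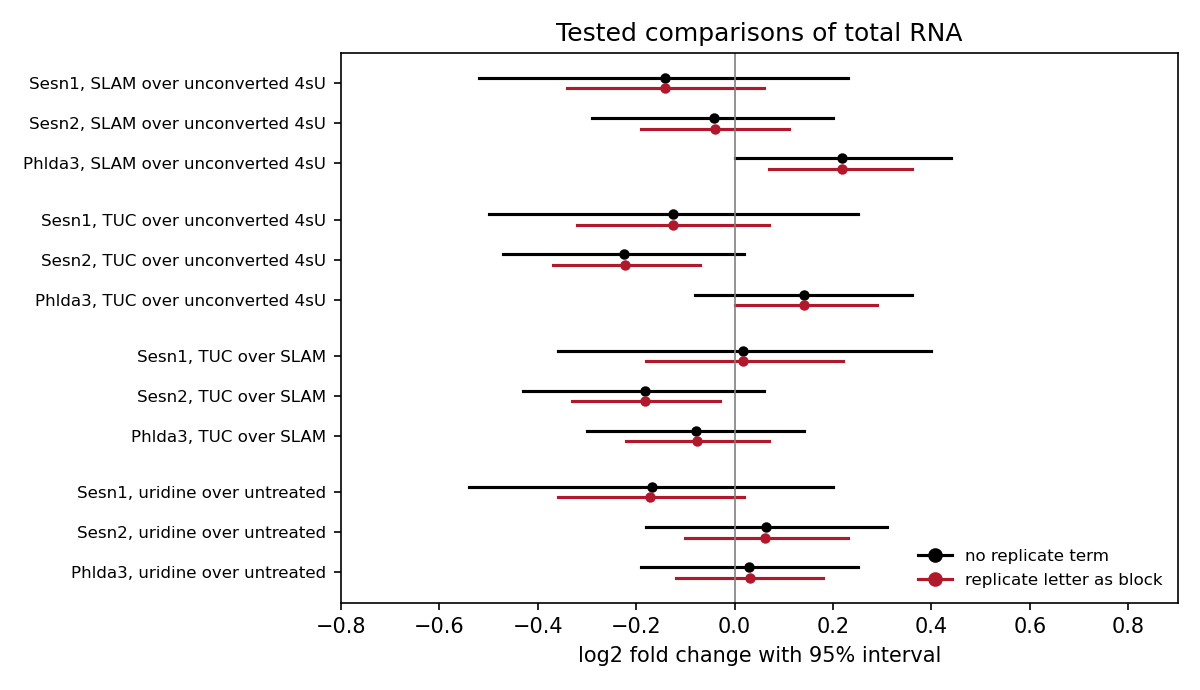
Log2 fold changes of total RNA (horizontal axis) for each tested comparison and gene, with 95% intervals. Black is the fit without a replicate term and red the blocked one. The red intervals of Phlda3 in SLAM over unconverted 4sU and of Sesn2 in TUC over unconverted 4sU lie clear of 0, as does that of Sesn2 in TUC over SLAM, which did not pass after adjustment.

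The NTR (new-to-total ratio), or part of the RNA synthesised within the 2 h of labelling, was high for all 3 genes. For Sesn2 it was 98.4 and 97.7% in TUC A and B and 98.0 and 99.5% in SLAM A and B. The bounds deposited with it, the 0.05 and 0.95 quantiles, spanned 96.0 to 99.8% over these 4 libraries. In SLAM B the deposited posterior mean is listed at 100%, above its own upper bound, and the mode is used here. Nearly all Sesn2 RNA in the converted libraries was therefore counted as new, and the mean over SLAM libraries lay at percentile 96.8 of 10202 genes with 100 reads or more.

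Phlda3 had an NTR of 88.5 and 90.1% in TUC A and B and of 87.2 and 90.0% in SLAM A and B, at percentile 79.0 in TUC and 78.5 in SLAM libraries. Its bounds, 85.8 to 91.3% over the 4 libraries, did not reach those of Sesn2. Sesn1 had 89.1 and 86.9% in TUC A and B and 85.5 and 85.1% in SLAM A and B, at percentiles 77.4 and 75.1. With bounds of 80.2 to 92.5%, its values overlapped those of Phlda3. The median over all genes was 58.6% in TUC and 56.6% in SLAM libraries.

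In libraries without conversion the same estimate gives the background of mismatches. It was 4.35 and 3.0% for Sesn2 in unconverted 4sU A and B, and 2.28 and 1.56% in uridine A and B. Phlda3 had 3.19 and 2.96% with unconverted 4sU, and 2.31 and 1.95% with uridine. Sesn1 had 1.13 and 2.51% with unconverted 4sU, and 0.99 and 0% with uridine. The medians over all genes were 1.94 and 1.77% with unconverted 4sU, and 1.42 and 1.0% with uridine. Every background value of the 3 genes was below 5% and far from the converted libraries.

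TUC and SLAM libraries were not told apart by NTR for any of the 3 genes. On the log2 odds scale the difference, TUC minus SLAM, was 0.10 ± 0.386 for Phlda3, 0.34 ± 0.376 for Sesn1 and -1.0 ± 0.659 for Sesn2 (SE), each with an adjusted p of 1 in limma over 10202 genes, of which 0.265% were called without the block and 0% with it. The value for Sesn2 depended on SLAM B, whose estimate of 99.5% is close to the upper end of the scale. Without that library the difference was 0.02, without SLAM A it was -2.02, and with the deposited posterior mean in place of the mode it was -2.16.

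**Figure D3:**
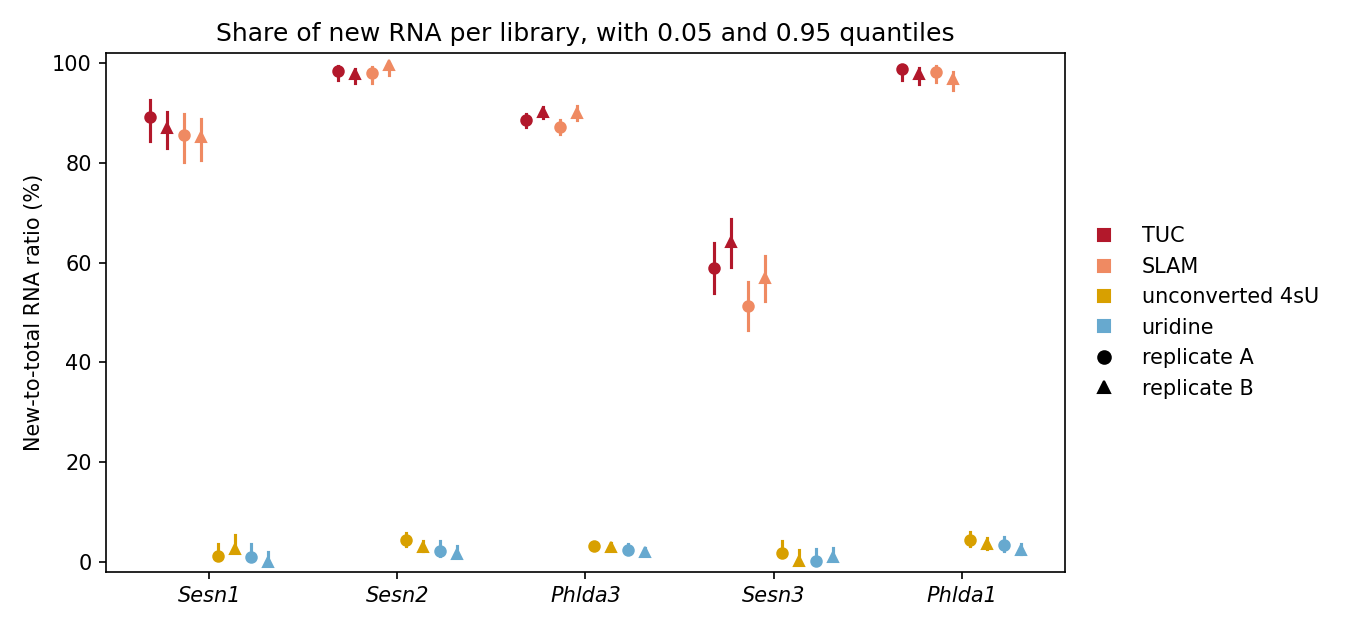
New-to-total RNA ratio in percent (vertical axis) in each library for the 3 genes and their relatives Sesn3 and Phlda1, with bars from the 0.05 to the 0.95 quantile. Points of converted libraries lie above 80% for Sesn1, Sesn2, Phlda3 and Phlda1 and between 51.2 and 64.1% for Sesn3. Points of libraries without conversion lie below 5%, with bars that reach up to 5.9%.

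Multiplying CPM by NTR divides each level into new and pre-existing RNA. In TUC libraries Sesn2 had 42.7 ± 0.295 CPM of new and 0.867 ± 0.229 CPM of pre-existing RNA, and in SLAM libraries 48.9 ± 1.48 and 0.606 ± 0.509 CPM (SD, n = 2), against 24.2 CPM in untreated libraries. The new RNA alone came to 176 and 202% of the untreated level, and what was left of old RNA to 3.58 and 2.5% of it. This pre-existing share lay at percentile 9.35 of all genes in TUC and 7.12 in SLAM libraries.

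Phlda3 had 116 ± 5.85 CPM of new and 13.9 ± 0.981 CPM of pre-existing RNA in TUC libraries, and 122 ± 9.47 and 15.8 ± 4.23 CPM in SLAM libraries (SD, n = 2), against 57.3 CPM in untreated libraries. New RNA came to 203% of the untreated level in TUC and 213% in SLAM libraries, close to Sesn2. Pre-existing RNA came to 24.3% in TUC and 27.7% in SLAM libraries, more than was left of Sesn2 and below the medians over all genes, 37.4 and 39.1%.

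Sesn1 had 8.53 ± 1.01 CPM of new and 1.18 ± 0.309 CPM of pre-existing RNA in TUC libraries, and 8.18 ± 1.4 and 1.41 ± 0.278 CPM in SLAM libraries (SD, n = 2), against 12.4 CPM in untreated libraries. Its new RNA came to 68.8 and 66.0% of the untreated level, where the medians over all genes were 52.8 and 50.8%, and its pre-existing RNA to 9.48 and 11.4%. Sesn1 and Phlda3 thus had overlapping NTR, but the parts behind it differed: relative to untreated cells Sesn1 had less new and less old RNA than Phlda3.

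**Figure D4:**
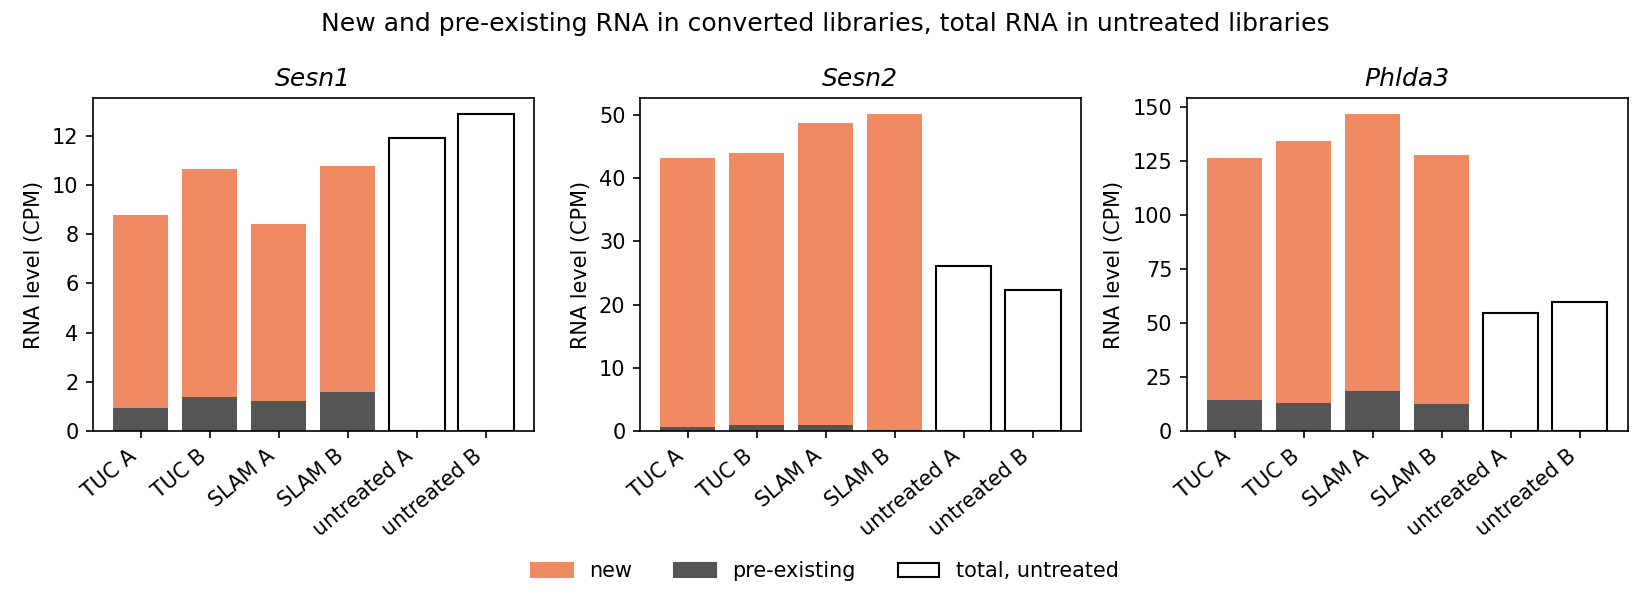
New (orange) and pre-existing (dark grey) RNA in CPM stacked for each converted library, beside the total in untreated libraries (white), for each gene. Pre-existing RNA is 0.246 to 1.03 CPM for Sesn2 and 12.8 to 18.8 CPM for Phlda3, and the new RNA of both exceeds the untreated total.

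If levels are taken as steady, an NTR after 2 h corresponds to an RNA lifetime. That reading gave a half-life of 20.2 and 22.2 min for Sesn2 in TUC A and B and of 21.2 and 15.6 min in SLAM A and B. The deposited NTR bounds correspond to 12.9 to 25.8 min over these libraries. Sesn1 gave 37.5 and 40.9 min in TUC and 43.0 and 43.7 min in SLAM libraries, and Phlda3 38.5 and 35.9 min in TUC and 40.4 and 36.2 min in SLAM libraries. The median NTR of all genes corresponds to 94.3 min in TUC and 99.6 min in SLAM libraries. Sesn2 and Phlda3 stood higher in TUC and SLAM than in untreated libraries, and Sesn1 stood lower. The members were chosen mainly on contrasts that used the same untreated libraries, and whether their levels were steady was not tested. A loss reading, taken from pre-existing RNA against the untreated level, does not need a steady total. It assumes instead that labelled cells began at the untreated level, which was not tested either, so neither reading is preferred. The loss reading gave 23.5 and 26.3 min for Sesn2 in TUC A and B, and 25.8 and 18.1 min in SLAM A and B. In SLAM B it rests on 0.246 CPM of pre-existing RNA, with bounds of 0.0803 to 1.19 CPM. For Phlda3 the loss reading gave 60.8 and 56.7 min in TUC, and 74.8 and 55.7 min in SLAM libraries, longer than the steady reading. For Sesn1 the loss reading gave 32.5 and 38.1 min in TUC, and 35.8 and 40.7 min in SLAM libraries. Both readings assume that labelling began at once. The steady one rests on NTR alone, and the loss reading also uses CPM, a relative scale.

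Sesn3, the remaining sestrin, stood at 10.1 ± 0.725 CPM in TUC, 10.6 ± 0.0854 CPM in SLAM, 13.3 ± 0.205 CPM in unconverted 4sU, 14.8 ± 0.301 CPM in uridine and 14.5 ± 1.26 CPM in untreated libraries (SD, n = 2). Unconverted 4sU over untreated gave a log2 fold change of -0.12 ± 0.105 (adjusted p = 0.855 by edgeR). Its NTR, 61.6% in TUC and 54.0% in SLAM libraries, was close to the median gene. With the letter as a block Sesn3 was lower than in unconverted 4sU in TUC (-0.40 ± 0.09, adjusted p = 0.00505) and SLAM libraries (-0.32 ± 0.088, adjusted p = 0.00823, edgeR). Without the block neither passed.

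Phlda1, which shares the pleckstrin homology-like domain of Phlda3, had a high NTR. Its difference with 4sU was smaller than that of Phlda3, which was chosen mainly on that difference. It stood at 57.3 ± 3.14 CPM in TUC, 74.5 ± 1.88 CPM in SLAM, 50.5 ± 0.576 CPM in unconverted 4sU, 48.1 ± 0.297 CPM in uridine and 43.8 ± 1.65 CPM in untreated libraries (SD, n = 2). Over untreated, unconverted 4sU gave a log2 fold change of 0.21 ± 0.081 (adjusted p = 0.465 by edgeR, and adjusted p = 0.0268 with the block). Its log2 fold change in SLAM over unconverted 4sU libraries was 0.56 ± 0.081 (adjusted p = 0.0444, edgeR), where 0.344% of all genes were called without the block. Phlda1 was the 1 gene among 69 pathway genes called without the block in any of the 6 comparisons. Its NTR was 98.2% in TUC and 97.4% in SLAM libraries, close to that of Sesn2, and its new RNA came to 129 and 166% of the untreated level. Phlda2 was not analysed here.

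**Figure D5:**
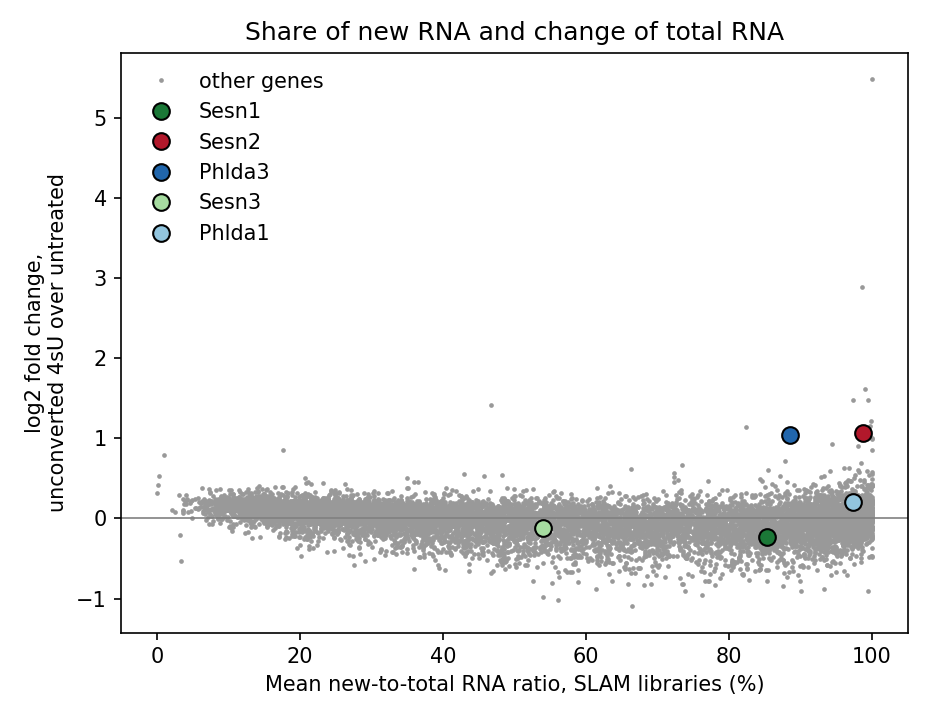
Mean NTR in SLAM libraries in percent (horizontal axis) against the log2 fold change of total RNA in unconverted 4sU over untreated libraries (vertical axis) for genes with 100 reads or more (small grey points) and for the sestrins, Phlda3 and Phlda1 (large points). Sesn2 and Phlda3 lie at 1.07 and 1.04 on the vertical axis, Sesn1 at -0.23, at NTR values of 98.8, 88.6 and 85.3%.

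The pathways that the sestrins and Phlda3 act on were described from 74 listed genes, 69 of them past the filter. Between unconverted 4sU and untreated libraries 0 passed without the block, where 0.164% of all genes did. With the block 5 were higher and 14 lower, 27.5% of the list against 19.9% of all genes, and the median log2 fold change was -0.05, against 0.01 over all genes. Against uridine, which shares the 4sU libraries, the blocked counts were 5 higher and 16 lower, 30.4% of the list against 19.7% of all genes.

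Among the 13 genes of GATOR and KICSTOR, the complexes that pass amino acid signals from sestrins to mTORC1, 4 fell and 0 rose with the block between unconverted 4sU and untreated libraries, against 19.9% of all genes called, and 0 of 13 passed without it. Wdr59 and Mios, subunits of GATOR2, to which sestrins bind, had 15.8 and 22.5 CPM with unconverted 4sU, against 25.5 and 34.2 CPM untreated. Their log2 fold changes were -0.69 ± 0.077 (adjusted p = 1.33e-05) and -0.61 ± 0.072 (adjusted p = 2.38e-05, edgeR with the block). Depdc5, of GATOR1, fell by 0.46 and Seh1l, a GATOR2 subunit shared with the nuclear pore, by 0.16. The other 9 did not pass.

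Of 9 genes of the mTOR complexes, 3 fell and 1 rose with the block between unconverted 4sU and untreated libraries. With the block 19.9% of all genes were called in that comparison, to which all counts in this paragraph belong. Without the block 0 genes of these lists passed. Mtor, the kinase itself, had 39.4 CPM with unconverted 4sU and 47.5 CPM untreated (log2 fold change -0.27 ± 0.065), and its partner Rptor fell by 0.25. Prr5l, which binds mTORC2, fell by 0.30, and Mlst8, a subunit of both complexes, rose by 0.21. Of 6 genes of the TSC arm, Tsc1 fell by 0.44 and Ddit4, a stress-induced brake that acts through TSC, rose by 0.29. Of 11 Rag, Ragulator and folliculin genes, the Ragulator genes Lamtor1 and Lamtor2 rose by 0.20 and 0.23 and Fnip2, a folliculin partner, fell by 0.22. Of 9 AMPK and LKB1 genes, 1 fell, the AMPK subunit Prkab1 (-0.23).

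On the AKT side, 3 of 10 kinase genes fell and 0 rose with the block between unconverted 4sU and untreated libraries, where 19.9% of all genes were called, and 0 of 10 passed without it. These were Pik3ca, the catalytic subunit of PI3-kinase (-0.42 ± 0.059, adjusted p = 0.000106, edgeR with the block), Pdpk1, the kinase that activates AKT (-0.32), and Pik3r3 (-0.33). Among 11 other brakes of AKT signalling, 1 rose, Phlda1 by 0.21, and 1 fell. Wdr59 had the largest blocked log2 fold change in size of the 69 pathway genes in that comparison. It is not ranked against the members, which were chosen mainly on that contrast.

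With the block these pathway genes also differed between converted and unconverted 4sU libraries, as did genes in general. In SLAM over unconverted 4sU libraries 12 rose and 22 fell, 49.3% of 69 against 41.6% of all genes, among them Fnip1 (-0.79 ± 0.089), Rictor, which defines mTORC2 (-0.67 ± 0.094), and Akt1s1, an mTORC1 inhibitor (0.55 ± 0.056). In TUC over unconverted 4sU libraries 7 rose and 15 fell, 31.9% against 25.8%. TUC over SLAM gave 9 each way, 26.1% against 20.1%. Between uridine and untreated libraries 0 of 69 passed, with 0.00818% of all genes called with the block and 0% without it.

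By turnover the 62 pathway genes with 100 reads or more had a median NTR of 63.0% in SLAM libraries. Sesn2 was exceeded by 2 of them, Pik3r1 (99.0%), a regulatory subunit of PI3-kinase, and Trib2 (98.9%), a pseudokinase. Phlda3 was exceeded by 19 and Sesn1 by 22. The brakes of AKT signalling had the highest median of the 7 lists, 96.2% over 10 genes. The slowest gene was the Ragulator gene Lamtor2 at 8.46%.

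Likeness was measured as Pearson's r of log2 CPM over the 10 libraries, among 8525 genes with a mean of 10 CPM or more. It is a description only, since the libraries share treatments and letters and the members were chosen mainly on contrasts of them. Sesn2 and Phlda3 had r = 0.949 with each other, and Sesn1 had -0.636 with Sesn2 and -0.668 with Phlda3. Nearest to Sesn2 were Gtse1 (0.984), a microtubule-binding protein, Tnfrsf10b (0.981), a death receptor, Aen (0.979), an apoptosis-enhancing nuclease, Ddias (0.971) and Cdkn1a (0.97), the cell-cycle inhibitor p21. Nearest to Phlda3 were Cdkn1a (0.985), Psrc1 (0.983), Tnfrsf10b (0.982), Tor3a (0.978) and Ddit3 (0.978), a stress-induced transcription factor. In SLAM libraries the NTR of these genes ran from 68.0% for Tor3a to 100% for Ddias, all above the median gene at 56.6%. Gtse1 (98.1%), Cdkn1a (99.4%) and Ddias were close to the 98.8% of Sesn2.

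Nearest to Sesn1 were Vash2 (0.993), Kalrn (0.973), Zfp217 (0.972), Usp48 (0.966) and Tgfbrap1 (0.966). All 5 were lower with unconverted 4sU than in untreated libraries, for example Vash2 at 42.0 against 50.8 CPM and Usp48 at 50.6 against 59.3 CPM. They were picked by correlation with Sesn1 over these same libraries, so sharing its direction is no separate observation. Their NTR in SLAM libraries ran from 54.9% for Usp48 to 98.6% for Zfp217, on either side of the 85.3% of Sesn1.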

How the data were processed

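RNA of NIH-3T3 cells was measured in 10 libraries, 2 replicates in each of 5 groups taken from the sample titles. Per the submitters' processing notes, the tools were STAR 2.7.10b, Bowtie2 2.3.0 and cutadapt. Not given in the sources used here: the build, the annotation, the strand setting and the programs used for counting and for the new RNA estimate. The authors deposited expected counts per gene, unscaled, and, per the file headers, a fraction per gene as posterior mean, mode (MAP) and 0.05 and 0.95 quantiles. The headers do not name that fraction; it is taken as the NTR because it lies near 0 without conversion. Gene length was deposited without saying which length. Of the per-sample columns, 16 were not used.

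Expected counts were rounded, filtered with filterByExpr and tested with edgeR 4.0.16 (TMM, quasi-likelihood, 1 fit of all 10 libraries with a term per group; R 4.3.3), with DESeq2 1.42.0 as an alternative. NTR modes, limited to 0.001 to 0.999, were tested as log2 odds with limma 3.58.1. The adjusted p threshold was 0.05 (Benjamini-Hochberg). Scripts were tested on simulated data. The letters A and B were taken as pairs because A minus B differences correlated across genes for every pair of groups (r 0.584 to 0.69); the labels do not say what a letter shares, nor whether replicates were separate cultures, and the p-values cover only how far these samples spread, which may be technical. Counts of the letters of a group differed beyond sampling noise in a chi-square test (38.4 to 78.1 per degree of freedom). The members and gene lists were chosen with earlier results of these data known. Named genes are the members, their relatives, up to 4 called genes per pathway list and comparison, and the 5 genes most correlated with each member. How reads shared between genes were counted is not given in the sources used here. Sequences are from RefSeq GRCm38.p6, in which all 3 symbols matched. The values of 1 listed pathway gene are not reported here.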

Additional observations from a re-analysis of the deposited data

How the results depend on the processing

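The counts of called genes depended on the fit far more than the members' values did. With the replicate letter as a block, calls numbered 1 for uridine over untreated, 5079 for SLAM over unconverted 4sU, 3151 for TUC over unconverted 4sU, 2458 for TUC over SLAM, 2432 for unconverted 4sU over untreated, 2412 for unconverted 4sU over uridine and 0 for the NTR of TUC over SLAM, where the fits without the block gave 0, 42, 0, 0, 20, 31 and 27. DESeq2 called 699 genes for SLAM over unconverted 4sU, 16 for TUC over unconverted 4sU, 181 for TUC over SLAM, 241 for unconverted 4sU over untreated and 279 for unconverted 4sU over uridine. Library totals in place of TMM gave 22 calls for SLAM over unconverted 4sU, and no filter gave 2 calls each for TUC over unconverted 4sU and TUC over SLAM. Leaving out 1 library gave 0 calls for SLAM over unconverted 4sU, 2 to 3 for unconverted 4sU over untreated, 1 to 2 for unconverted 4sU over uridine and 128 to 288 for NTR. NTR calls numbered 65 at a minimum of 500 reads, which Sesn1 does not reach, and 53 with no minimum. The block made Phlda3 pass in SLAM over unconverted 4sU (0.218, and 0.348 without SLAM B, an alternative chosen after seeing the data) and Sesn2 in TUC over unconverted 4sU (-0.222), and it changed no other tested call of the 3 genes. The ranges that follow are of fits without the block that leave out 1 library, for values that changed sign. Over uridine against untreated libraries they ran from -0.044 to 0.179 for Sesn2 and from -0.03 to 0.093 for Phlda3. Sesn1 ran from -0.169 to 0.064 in unconverted 4sU over uridine, from -0.335 to 0.03 in SLAM over unconverted 4sU and from -0.161 to 0.21 in TUC over SLAM. Sesn2 ran from -0.091 to 0.012 in SLAM over unconverted 4sU, and Phlda3 from -0.176 to 0.015 in TUC over SLAM. NTR differences (log2 odds) ran from -2.017 to 0.02 for Sesn2 (-2.158 with the posterior mean) and from -0.094 to 0.298 for Phlda3. The cause was not tested. With 229 to 446.5 reads a library, Sesn1 is the least precisely measured of the 3.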
